A study of Mus musculus with 28 samples.

Results

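Interferon-stimulated genes are the genes that a cell switches on when interferon tells it that a virus or another intruder is near. Secreted interferons bind receptors whose JAK kinases phosphorylate STAT proteins. The STAT proteins, with IRF factors, then bind short elements in the promoters of these genes: the interferon-stimulated response element (ISRE) and the gamma-activated site (GAS). The products include GTPases that attack the membranes around intracellular pathogens, sensors of foreign RNA, transcription factors that extend the response, and effectors that block entry, replication or release of viruses. Pluripotent stem cells are known for a weak interferon response, and for expressing some interferon-stimulated genes, the Ifitm genes among them, without interferon.

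A set of 39 such genes was described, chosen by symbol and grouped by the role of the product. Of these, 34 had a row in the deposited table of 17342 genes, and all 34 passed the filter on low values. They were 6 of 8 GTPases, 7 of 7 sensors of viral RNA and their partners, 3 of 4 transcription factors and 18 of 20 effectors. The other 5, Ifit3, Irf7, Mx1, Mx2 and Usp18, had no row and were not analysed here.

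The cells were mouse embryonic stem cells (ESCs) of V6.5, a male line of mixed 129 and C57BL/6 origin, in medium with serum and LIF, the cytokine that keeps them self-renewing. Tet2 codes for a dioxygenase that oxidizes 5-methylcytosine, and the series concerns what Tet2 does apart from that activity. RNA-seq covered Tet2-KO (n = 2 clones), Tet2-Mut (n = 2 clones) and Tet2-WT (n = 3 independent ESC cultures). The labels name no exon or allele for the knockout or the mutation, and no interferon was part of any treatment named in them. All 3 groups had been kept on feeder cells, pre-plated to take the feeders away and left overnight on gelatin. The p-values measure the spread between these cultures and clones. The series holds 28 samples, and the other 21 (bisulfite sequencing and CUT&Tag) were not analysed here.

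Values are read counts per gene divided by a size factor of the library (normalized counts). They are comparable between libraries and not corrected for gene length, so levels are not compared between genes. Libraries held 41.9 M to 58.5 M reads assigned to genes, and 3 reads corresponded to 2.5 to 3.54 normalized counts. Tet2 itself (chromosome 3, 133463677 to 133545136, mm10) had 4624 and 5206 normalized counts in Tet2-KO, 9992 and 13181 in Tet2-Mut, and 10343, 10245 and 12074 in Tet2-WT, so both libraries labelled Tet2-KO lay below the rest. The 8 ESC markers looked for were all present, with Pou5f1 between 52319 and 72697 normalized counts in every library. Of the 8, limma called 1 in each comparison. Lin28a was higher in Tet2-KO than in Tet2-WT (log2 fold change 0.73, limma adjusted p = 0.0109) and Tet2-Mut (0.52, adjusted p = 0.0381). Nanog was lower in Tet2-Mut than in Tet2-WT (-0.37, adjusted p = 0.0457). By chi-square per degree of freedom over all genes, the Tet2-KO clones differed by 34.2 and the Tet2-Mut clones by 45.1, and pairs of Tet2-WT cultures by 7.19 to 13.4.

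The means of Tet2-KO and Tet2-Mut lay on opposite sides of Tet2-WT for all 6 GTPases, while Zc3hav1 and Rnf213 were lower in both Tet2-KO and Tet2-Mut than in Tet2-WT. With limma at an adjusted p of 0.05 over all genes tested, 10 of the 34 were higher and 0 lower in Tet2-KO than in Tet2-Mut. Over all 17338 genes tested, 6.19% were called in that comparison, 2.64% as higher and 3.55% as lower. For the count of 0, edgeR and DESeq2 also gave 0 lower, and 16 members had an unadjusted p under 0.05 in either direction. Against Tet2-WT, 1 member (Gbp2) was higher in Tet2-KO and 2 (Zc3hav1 and Rnf213) were lower, where 5.91% of all genes were called (3% higher and 2.91% lower). In Tet2-Mut against Tet2-WT, 1 member (Ifitm3) was higher and 5 were lower (Gbp3, Trim25, Xaf1, Zc3hav1 and Rnf213), where 3.43% of all genes were called (1.44% higher and 1.98% lower).

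Other count models gave like or larger numbers. On the reads recovered from the table, edgeR called 9 of the 34 in Tet2-KO against Tet2-Mut (all genes: 6.08%), 3 in Tet2-KO against Tet2-WT (6.4%) and 6 in Tet2-Mut against Tet2-WT (3.36%). DESeq2 called 12 (all genes: 10.7%), 8 (11.6%) and 11 (10.1%) in the same order of comparisons.

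The median log2 fold change of the 34 genes was 0.57 in Tet2-KO against Tet2-Mut, 0.22 in Tet2-KO against Tet2-WT and -0.54 in Tet2-Mut against Tet2-WT, beside all-gene medians of 0.00, -0.00 and 0.01. The comparisons share libraries, so these values are not independent of each other. Without overlap between the libraries of the groups, 20 members were higher and 4 lower in Tet2-KO than in Tet2-Mut (all genes: 23.3% and 21.5%). In Tet2-KO against Tet2-WT these were 19 and 6 (all genes: 21.9% and 22.8%), and in Tet2-Mut against Tet2-WT 3 and 13 (all genes: 20.9% and 19.8%).

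The clones entered these medians unequally: without Tet2-Mut replicate 2 the median of the 34 genes was 0.39 in Tet2-KO against Tet2-Mut and -0.23 in Tet2-Mut against Tet2-WT. Without Tet2-KO replicate 2 the first of these was 0.38, and with the 28 members of mean at least 50 it was 0.29. Without Tet2-KO replicate 1 the median in Tet2-KO against Tet2-WT was 0.13.

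The calls depended on the model and on single libraries. The 10 calls of Tet2-KO against Tet2-Mut came to 0 when only the 4 libraries of those groups were fitted (14 members with an unadjusted p under 0.05), and to between 4 and 14 when 1 library was left out. The same fits gave 0 to 11 in Tet2-KO against Tet2-WT and 1 to 16 in Tet2-Mut against Tet2-WT, the last without Tet2-Mut replicate 1.

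**Figure D1:**
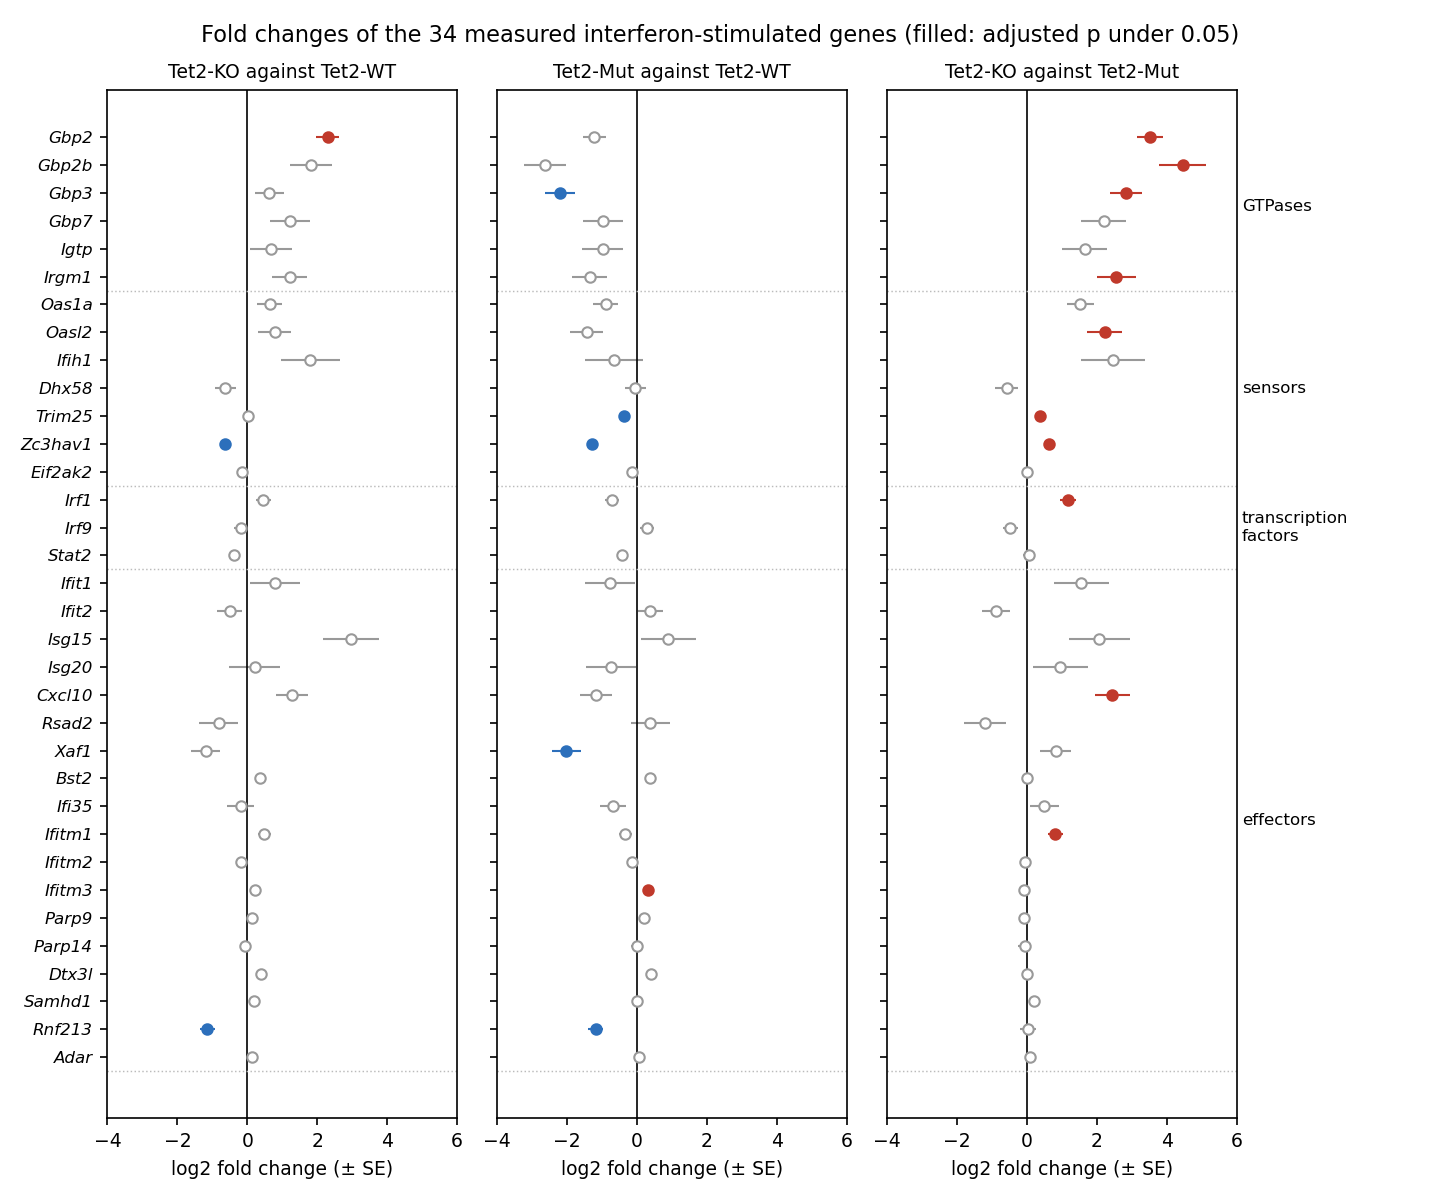
Log2 fold change (x axis, on the log2(normalized count + 1) scale) of the 34 interferon-stimulated genes in 3 comparisons, ordered by role; points are estimates, bars are 1 standard error and filled points have a limma adjusted p under 0.05 (red higher, blue lower). The 6 GTPases lie right of 0 in Tet2-KO against Tet2-WT, left of 0 in Tet2-Mut against Tet2-WT and farthest right in Tet2-KO against Tet2-Mut.

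The GTPases Gbp2b, Gbp2 and Gbp3 had the 3 highest log2 fold changes of the 34 genes in Tet2-KO against Tet2-Mut. All 6 GTPases in the table, 4 guanylate-binding proteins (Gbp2, Gbp2b, Gbp3 and Gbp7) and the immunity-related GTPases Irgm1 and Igtp, had their Tet2-KO libraries above every Tet2-Mut and every Tet2-WT library. Guanylate-binding proteins assemble on the membranes of bacteria and parasite vacuoles. Immunity-related GTPases act on the same vacuoles, and Irgm1 and Igtp belong to the members that regulate the others. Of the 6, 4 were called higher and 0 lower in Tet2-KO against Tet2-Mut (edgeR 4 and 0, DESeq2 5 and 0, and 6 with an unadjusted p under 0.05), with log2 fold changes of the 6 between 1.66 and 4.46. In Tet2-KO against Tet2-WT 1 was called higher (median 1.22), and in Tet2-Mut against Tet2-WT 1 was called lower (median -1.29). Over all genes, 2.64% were called higher in Tet2-KO against Tet2-Mut and 3% in Tet2-KO against Tet2-WT. The share called lower in Tet2-Mut against Tet2-WT was 1.98%. Without overlap, 23.3% of all genes were higher in Tet2-KO than in Tet2-Mut, and 21.9% higher than in Tet2-WT.

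Gbp2 had normalized counts of 1608 and 1139 in Tet2-KO, 175 and 77.2 in Tet2-Mut, and 348, 245 and 238 in Tet2-WT. The lowest Tet2-KO library was above the highest library of any other group. Its log2 fold change was 3.53 in Tet2-KO against Tet2-Mut (SE 0.36, limma adjusted p = 0.00382) and 2.31 against Tet2-WT (SE 0.33, adjusted p = 0.00979). In Tet2-Mut against Tet2-WT it was -1.22 and not called (adjusted p = 0.0803), although both Tet2-Mut libraries lay below all of Tet2-WT. The call against Tet2-WT was lost without Tet2-WT replicate 2, Tet2-WT replicate 3 or Tet2-KO replicate 1, with adjusted p up to 0.0845 over the 7 fits that leave out 1 library.

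Gbp2b, the neighbouring gene, had normalized counts of 547 and 323 in Tet2-KO, 41.2 and 7.72 in Tet2-Mut, and 154, 137 and 77.9 in Tet2-WT. The groups stood in the order Tet2-KO, Tet2-WT, Tet2-Mut with no overlap. Its log2 fold change in Tet2-KO against Tet2-Mut, 4.46 (SE 0.66, adjusted p = 0.00668), was the highest of all 17338 genes tested there. Those against Tet2-WT, 1.82 for Tet2-KO and -2.64 for Tet2-Mut, were not called (adjusted p = 0.112 and 0.0507). The differences of Gbp2 and Gbp2b between Tet2-KO and Tet2-Mut were called in each of the 7 fits that leave out 1 library.

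Gbp3 had normalized counts of 111 and 68.2 in Tet2-KO, 16.5 and 7.72 in Tet2-Mut, and 65.7, 54.6 and 48.4 in Tet2-WT. It fell in Tet2-Mut against Tet2-WT, by a log2 fold change of -2.20 with SE 0.42 (adjusted p = 0.0322). Tet2-KO exceeded Tet2-Mut by 2.84 (SE 0.46, adjusted p = 0.00882), a call lost without Tet2-KO replicate 1, while Tet2-KO against Tet2-WT gave 0.64 (adjusted p = 0.407). The Tet2-Mut call was lost without any 1 of the Tet2-WT libraries or without Tet2-Mut replicate 2.

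Irgm1 had normalized counts of 428 and 408 in Tet2-KO, 147 and 32.8 in Tet2-Mut, and 165, 215 and 163 in Tet2-WT. Both Tet2-KO clones were above all Tet2-WT cultures, with Tet2-Mut lowest and its clones far apart. It was called in Tet2-KO against Tet2-Mut (log2 fold change 2.57, SE 0.55, adjusted p = 0.0279) and not against Tet2-WT (1.22 for Tet2-KO and -1.35 for Tet2-Mut, adjusted p = 0.184 and 0.172). That call was lost without any 1 Tet2-WT library and without either Tet2-KO clone.

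Gbp7 and Igtp, which missed the test in all 3 comparisons, had the same order of group means. Gbp7 had normalized counts of 142 and 92 in Tet2-KO, 49.4 and 11.6 in Tet2-Mut, and 68.2, 32 and 51.9 in Tet2-WT. Igtp had normalized counts of 118 and 158 in Tet2-KO, 96.8 and 18.3 in Tet2-Mut, and 107, 62.1 and 92.1 in Tet2-WT. For both, Tet2-Mut replicate 1 lay within the range of Tet2-WT and Tet2-Mut replicate 2 below it. All 6 GTPases were lower in Tet2-Mut replicate 2 than in Tet2-Mut replicate 1: their summed normalized counts were 2955 and 2189 in Tet2-KO, 526 and 155 in Tet2-Mut, and 907, 746 and 672 in Tet2-WT.

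**Figure D2:**
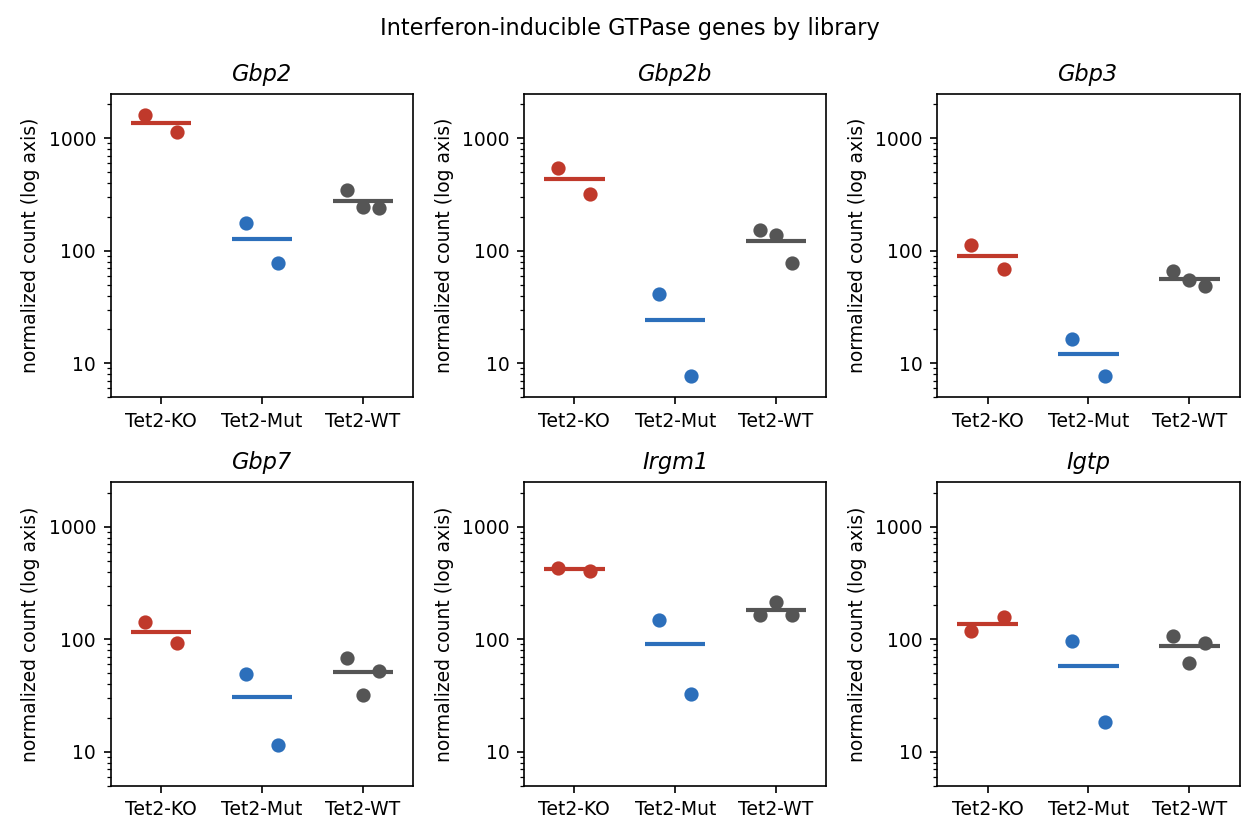
Normalized counts (y axis, log scale) of the 6 GTPases in each library of Tet2-KO (2 clones), Tet2-Mut (2 clones) and Tet2-WT (3 cultures); points are libraries and bars are group means. In every panel both Tet2-KO points lie above all others, and Tet2-Mut replicate 2 is the lowest point.

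The 4 guanylate-binding genes lie side by side on chromosome 3, from Gbp7 to Gbp2 (142530336 to 142638008, mm10), within 108 kb. Tet2 lies on the same chromosome, 8.99 Mb away. Of the 6 other table genes within 1 Mb of the cluster (Unc5c, Bmpr1b, Pdlim5, Kyat3, Gtf2b and Pkn2), 0 were called by limma in each comparison. Unadjusted p-values under 0.05 numbered 0 in Tet2-KO against Tet2-WT, 1 in Tet2-Mut against Tet2-WT and 0 in Tet2-KO against Tet2-Mut, and edgeR and DESeq2 gave 0. Irgm1 and Igtp lie on chromosome 11. Gbp2 and Gbp2b are close paralogs 1484 bp apart, so reads that fit both may have been dropped or split, and the share of each is uncertain.

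Promoters of 5 GTPases are shown here, since each holds the letters of an element that interferon-activated factors are known to bind, together with that of Irf1. Each run is the RefSeq promoter of GRCm38.p6 on the gene's strand, 250 bases before to 50 after the start. Capitals mark an ISRE, spelled GAAANNGAAA and searched on both strands, or a GAS, spelled TTCNNNGAA, which reads alike on both. Gbp2 lies at chr3:142620413-142620712 (plus strand), Gbp2b at chr3:142594597-142594896 (plus), Gbp3 at chr3:142559794-142560093 (plus), Gbp7 at chr3:142530086-142530385 (plus), Irgm1 at chr11:48871371-48871670 (minus) and Irf1 at chr11:53769764-53770063 (plus).
Gbp2: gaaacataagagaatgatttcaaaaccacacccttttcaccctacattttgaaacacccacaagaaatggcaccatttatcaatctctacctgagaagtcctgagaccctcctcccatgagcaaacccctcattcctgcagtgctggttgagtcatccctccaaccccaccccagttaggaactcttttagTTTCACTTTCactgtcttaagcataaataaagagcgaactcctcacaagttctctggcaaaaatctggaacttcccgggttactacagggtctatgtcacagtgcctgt
Gbp2b: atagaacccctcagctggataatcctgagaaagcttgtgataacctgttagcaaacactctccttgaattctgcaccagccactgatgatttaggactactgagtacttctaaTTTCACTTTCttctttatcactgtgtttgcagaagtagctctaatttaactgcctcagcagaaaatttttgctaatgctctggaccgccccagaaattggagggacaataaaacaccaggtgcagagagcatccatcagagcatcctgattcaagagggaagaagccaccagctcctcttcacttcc
Gbp3: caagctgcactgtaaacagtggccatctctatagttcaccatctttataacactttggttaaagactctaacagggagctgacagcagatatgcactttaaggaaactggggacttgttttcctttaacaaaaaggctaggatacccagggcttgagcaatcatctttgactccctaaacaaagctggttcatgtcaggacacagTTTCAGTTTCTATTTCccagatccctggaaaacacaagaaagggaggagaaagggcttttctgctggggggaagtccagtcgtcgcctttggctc
Gbp7: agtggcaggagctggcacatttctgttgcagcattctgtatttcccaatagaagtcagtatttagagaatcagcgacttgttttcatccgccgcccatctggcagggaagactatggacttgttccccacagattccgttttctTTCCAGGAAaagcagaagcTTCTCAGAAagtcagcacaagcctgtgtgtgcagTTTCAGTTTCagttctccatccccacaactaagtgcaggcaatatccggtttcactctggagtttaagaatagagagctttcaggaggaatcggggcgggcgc
Irgm1: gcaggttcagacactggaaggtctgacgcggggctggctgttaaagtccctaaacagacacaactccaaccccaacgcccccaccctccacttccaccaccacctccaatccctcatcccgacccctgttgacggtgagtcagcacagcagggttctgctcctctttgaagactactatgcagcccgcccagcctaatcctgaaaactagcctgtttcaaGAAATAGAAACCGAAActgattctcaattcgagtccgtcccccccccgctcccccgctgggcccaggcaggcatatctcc
Irf1: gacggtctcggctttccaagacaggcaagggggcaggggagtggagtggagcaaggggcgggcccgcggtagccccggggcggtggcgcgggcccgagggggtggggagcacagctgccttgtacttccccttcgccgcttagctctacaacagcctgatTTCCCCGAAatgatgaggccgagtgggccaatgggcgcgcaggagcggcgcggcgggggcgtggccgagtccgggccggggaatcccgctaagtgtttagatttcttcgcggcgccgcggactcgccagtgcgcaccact

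The ISRE of Gbp2 begins 59 bases before the start, that of Gbp7 53 and that of Gbp2b 137 bases before it. Gbp3 and Irgm1 each hold a pair of ISREs that overlap by 4 bases. Gbp7 also holds 2 GAS words, and the capitals of Irf1 are a single GAS. An ISRE and a GAS overlap in Bst2 and Ifitm3, which are not shown. Gbp3 and Irf1 each have a further RefSeq start whose window held neither word.

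Over the 31 members with a promoter window, 17 (54.8%) held an ISRE and 12 (38.7%) a GAS in at least 1 window, against 418 (3.45%) and 956 (7.90%) of 12102 table genes with a window. The members were chosen as interferon-stimulated genes, whose promoters are known to hold these elements, so these shares are no result about Tet2. All 6 GTPases held an ISRE. The 17 members with an ISRE had a median log2 fold change of 1.66 in Tet2-KO against Tet2-Mut and the 14 without one 0.44, while the 12 with a GAS had a median of 0.35 and the 19 without one 0.83. Each median with an ISRE includes the 6 GTPases, whose values there lay between 1.66 and 4.46. Of the other members with an ISRE, Ifit1, Isg15, Cxcl10, Oas1a and Ifih1 lay between 1.53 and 2.46. Stat2, Bst2, Ifitm2, Ifitm3 and Eif2ak2 lay between -0.09 and 0.05, and Rsad2 at -1.20. Whether the element matters apart from the GTPases was not tested. The medians in Tet2-KO against Tet2-WT were 0.68 with an ISRE and 0.08 without one, and 0.22 with a GAS and 0.49 without one. In Tet2-Mut against Tet2-WT they were -0.76 with an ISRE and -0.53 without one, and -0.41 with a GAS and -0.76 without one. Calls in Tet2-KO against Tet2-Mut fell on both sides, 5 with an ISRE (Gbp2, Gbp2b, Gbp3, Irgm1 and Cxcl10) and 5 without one (Irf1, Oasl2, Trim25, Ifitm1 and Zc3hav1), and Irf1 was the 1 call of 10 with a GAS. A match describes these letters in this window and is not a measured binding site.

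Among the 7 sensors and their partners, all 7 had a negative log2 fold change in Tet2-Mut against Tet2-WT (median -0.65), and 2 of these passed the test. In Tet2-KO against Tet2-WT, 1 was called lower and the median was 0.01. In Tet2-KO against Tet2-Mut, 3 were called higher (median 0.64). The shares of all genes called were 1.98% as lower, 2.91% as lower and 2.64% as higher, in this order of comparisons.

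Zc3hav1, the antiviral protein ZAP that binds CpG-rich viral RNA, was lower in both Tet2-KO and Tet2-Mut than in Tet2-WT. It had normalized counts of 1526 and 1882 in Tet2-KO, 1128 and 1045 in Tet2-Mut, and 2884, 2529 and 2527 in Tet2-WT, with no overlap between any of the groups. It fell by 1.28 on the log2 scale in Tet2-Mut (SE 0.11, limma adjusted p = 0.00344) and by 0.64 in Tet2-KO (SE 0.11, adjusted p = 0.0174), each against Tet2-WT. Tet2-KO was above Tet2-Mut by 0.64 (adjusted p = 0.018). The Tet2-Mut difference was called in each of the 7 fits that leave out 1 library. The Tet2-KO call against Tet2-WT was lost without any 1 Tet2-WT library or without Tet2-KO replicate 1, and that against Tet2-Mut without Tet2-WT replicate 2, Tet2-Mut replicate 2 or Tet2-KO replicate 2.

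Trim25, a ubiquitin ligase that works with RIG-I and with ZAP, had normalized counts of 9526 and 10498 in Tet2-KO, 8102 and 7216 in Tet2-Mut, and 9814, 9770.0 and 10117 in Tet2-WT. Both Tet2-Mut clones lay below every other library, while the Tet2-KO clones lay on either side of Tet2-WT. Its log2 fold change was -0.37 in Tet2-Mut against Tet2-WT (adjusted p = 0.0351), 0.39 in Tet2-KO against Tet2-Mut (adjusted p = 0.025) and 0.01 in Tet2-KO against Tet2-WT (adjusted p = 0.936). Both calls were lost without any 1 Tet2-WT library or without Tet2-Mut replicate 2, and that of Tet2-KO against Tet2-Mut also without Tet2-KO replicate 2. In the annotation Trim25 overlaps the predicted gene Gm11496.

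The oligoadenylate synthetases make the messenger that activates RNase L. Oasl2, a member of that family, had normalized counts of 249 and 259.5 in Tet2-KO, 105 and 27 in Tet2-Mut, and 165, 129.9 and 149 in Tet2-WT. Tet2-KO lay above and Tet2-Mut below all Tet2-WT libraries. It was called in Tet2-KO against Tet2-Mut (log2 fold change 2.23, SE 0.51, adjusted p = 0.0354), a call lost without any 1 Tet2-WT library and without either Tet2-KO clone. The values against Tet2-WT were 0.78 for Tet2-KO and -1.44 for Tet2-Mut (adjusted p = 0.356 and 0.124).

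Oas1a had the same order without a call, with normalized counts of 311 and 449.7 in Tet2-KO, 206 and 80.1 in Tet2-Mut, and 217, 229.7 and 273 in Tet2-WT, and a log2 fold change of 1.53 in Tet2-KO against Tet2-Mut (adjusted p = 0.0538). Close copies of Oas1a lie on the same chromosome, so the assignment of its reads is uncertain. The other sensors were not called. Ifih1, which encodes the double-stranded RNA sensor MDA5, was low, with normalized counts of 37.2 and 24.8 in Tet2-KO, 2.06 and 9.65 in Tet2-Mut, and 14.1, 13.2 and 2.36 in Tet2-WT, of which the values of Tet2-Mut replicate 1 and Tet2-WT replicate 3 were below the level of 3 reads. Dhx58, which encodes its relative LGP2, and Eif2ak2, which encodes the RNA-activated kinase PKR, had log2 fold changes between -0.63 and 0.00 over the 3 comparisons.

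Of the 3 transcription factors in the table, Irf1 alone was called, and only in Tet2-KO against Tet2-Mut. There 2.64% of all genes were called higher. Irf1 is itself induced by interferon gamma. It had normalized counts of 2133 and 2332 in Tet2-KO, 1323 and 725 in Tet2-Mut, and 1701, 1562 and 1596 in Tet2-WT. Tet2-KO clones were above, and Tet2-Mut clones below, all Tet2-WT cultures. The log2 fold change was 1.19 in Tet2-KO against Tet2-Mut (SE 0.23, adjusted p = 0.0175), a call lost without either Tet2-KO clone. The values against Tet2-WT were 0.46 for Tet2-KO (adjusted p = 0.218) and -0.72 for Tet2-Mut (adjusted p = 0.0913).

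Stat2 and Irf9 are subunits of ISGF3, the factor that binds the ISRE. Stat2 had normalized counts of 1415 and 1927 in Tet2-KO, 1761 and 1443 in Tet2-Mut, and 2226, 2149 and 2094 in Tet2-WT, so both Tet2-KO and Tet2-Mut lay below Tet2-WT without overlap. Its log2 fold changes of -0.38 for Tet2-KO and -0.44 for Tet2-Mut were not called (adjusted p = 0.135 and 0.118). Irf9 had normalized counts of 675 and 920.2 in Tet2-KO, 877 and 1362 in Tet2-Mut, and 836, 1007 and 858 in Tet2-WT, with overlapping groups. Against Tet2-WT, limma called 0 of the 3 factors in Tet2-KO (1 with an unadjusted p under 0.05, edgeR 0, DESeq2 0) and 0 in Tet2-Mut (2 with an unadjusted p under 0.05, edgeR 0, DESeq2 2 lower). Over all genes limma called 5.91% and 3.43% there, so a count of 0 among 3 genes says little.

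The 18 effectors showed no common direction. Their median log2 fold change was 0.17 in Tet2-KO against Tet2-WT, -0.00 in Tet2-Mut against Tet2-WT and 0.07 in Tet2-KO against Tet2-Mut. Calls numbered 1, 3 and 2 of the 18 in these comparisons, beside 5.91%, 3.43% and 6.19% of all genes.

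Rnf213, a very large ubiquitin ligase that coats intracellular bacteria, was lower in both Tet2-KO and Tet2-Mut than in Tet2-WT. It had normalized counts of 806 and 1006 in Tet2-KO, 1112 and 684 in Tet2-Mut, and 2272, 2020.3 and 1697 in Tet2-WT. Every Tet2-KO and Tet2-Mut library lay below every Tet2-WT library. The log2 fold changes against Tet2-WT were -1.14 for Tet2-KO (SE 0.21, limma adjusted p = 0.0191) and -1.18 for Tet2-Mut (adjusted p = 0.0262). Tet2-KO against Tet2-Mut gave 0.05 (SE 0.23, adjusted p = 0.939). Each call was lost without any 1 Tet2-WT library, that of Tet2-KO also without its replicate 1 and that of Tet2-Mut also without its replicate 2. The annotated gene A930037H05Rik overlaps Rnf213, and no source used here says whether strand was used in counting.

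Xaf1, an antagonist of the apoptosis inhibitor XIAP, had normalized counts of 33 and 85.8 in Tet2-KO, 35 and 25.1 in Tet2-Mut, and 109, 123 and 139 in Tet2-WT. All 4 Tet2-KO and Tet2-Mut libraries lay below Tet2-WT. The log2 fold change was -2.02 in Tet2-Mut (SE 0.41, adjusted p = 0.0361) and -1.19 in Tet2-KO (adjusted p = 0.121) against Tet2-WT, and 0.83 in Tet2-KO against Tet2-Mut (adjusted p = 0.345). The Tet2-Mut call was lost without any 1 Tet2-WT library or without Tet2-Mut replicate 2.

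The Ifitm genes encode small membrane proteins that hinder the fusion of viruses with the cell. Their values differed by little beside those of the GTPases. Ifitm3 had normalized counts of 9966 and 10174 in Tet2-KO, 10449 and 10957 in Tet2-Mut, and 8266, 9007 and 8496 in Tet2-WT. Tet2-KO and Tet2-Mut were both above all Tet2-WT cultures, and the log2 fold change was 0.32 for Tet2-Mut (SE 0.06, adjusted p = 0.0358) and 0.23 for Tet2-KO (adjusted p = 0.0665). Tet2-KO against Tet2-Mut gave -0.09 (adjusted p = 0.54).

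Ifitm1 had normalized counts of 10839 and 13458 in Tet2-KO, 8713 and 5367 in Tet2-Mut, and 9460.4, 8710.0 and 7691 in Tet2-WT. Both Tet2-KO clones lay above the other libraries. It was called in Tet2-KO against Tet2-Mut (log2 fold change 0.82, SE 0.20, adjusted p = 0.0479), and not against Tet2-WT (0.49 for Tet2-KO and -0.33 for Tet2-Mut, adjusted p = 0.153 and 0.349). That call was lost without each library other than Tet2-Mut replicate 1, and with edgeR, upper quartile scaling or a mean of at least 50 as the filter. Ifitm2 had normalized counts of 6545 and 8798 in Tet2-KO, 8089 and 7489 in Tet2-Mut, and 8784, 9079 and 7991 in Tet2-WT, and was not called. The Ifitm3 call was lost without any 1 Tet2-WT library or without Tet2-Mut replicate 2. The 3 genes are similar neighbours on chromosome 7, so reads may be shared among them.

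Cxcl10, a chemokine that attracts T cells, had normalized counts of 58.8 and 37.2 in Tet2-KO, 10.3 and 5.79 in Tet2-Mut, and 18.3, 16.9 and 21.2 in Tet2-WT. Its groups stood in the order of the guanylate-binding genes, without overlap. It was called in Tet2-KO against Tet2-Mut (log2 fold change 2.45, SE 0.51, adjusted p = 0.0246), while the values against Tet2-WT were 1.28 for Tet2-KO and -1.17 for Tet2-Mut (adjusted p = 0.141 and 0.196). The call was lost without any 1 Tet2-WT library, without Tet2-Mut replicate 2 or without Tet2-KO replicate 1.

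Isg15, the ubiquitin-like modifier, had the highest log2 fold change of the 34 genes in Tet2-KO against Tet2-WT, 2.97 (SE 0.79), without passing the test (adjusted p = 0.0604). It had normalized counts of 43.4 and 24.8 in Tet2-KO, 4.12 and 11.6 in Tet2-Mut, and 1.66, 1.88 and 9.44 in Tet2-WT, and 2 of the Tet2-WT values were below the level of 3 reads. Bst2, which tethers budding virions, and Dtx3l, a ubiquitin ligase, were above Tet2-WT without overlap in both Tet2-KO and Tet2-Mut and were not called. Their log2 fold changes lay between 0.37 and 0.40. Dtx3l overlaps Parp9 in the annotation.

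The remaining 9 effectors, Ifit1, Ifit2, Isg20, Rsad2, Ifi35, Parp9, Parp14, Samhd1 and Adar, were called in none of the 3 comparisons. Without overlap, Ifit2 (-0.87) and Rsad2 (-1.20) were lower in Tet2-KO than in Tet2-Mut (all genes: 21.5%). Ifit1, Isg20, Ifi35, Samhd1 and Adar were higher there without overlap (all genes: 23.3%). Rsad2, which encodes viperin, and the cap-binding Ifit1 stayed at or below 33.0 normalized counts in every library. Samhd1, which removes nucleotides that viruses need, and Adar, which edits double-stranded RNA, stayed between 2556 and 4567.

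**Figure D3:**
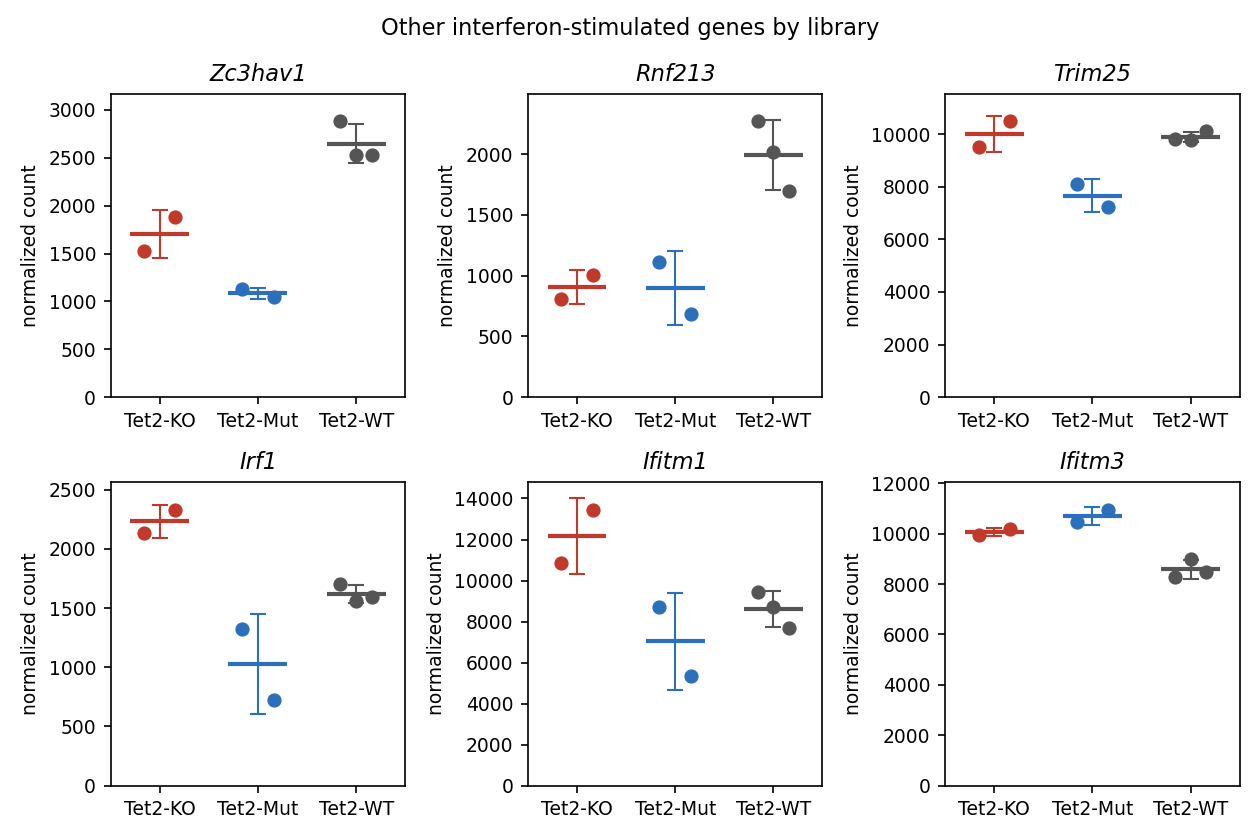
Normalized counts (y axis, linear from 0) of 6 members outside the GTPases in Tet2-KO, Tet2-Mut and Tet2-WT; points are libraries, and bars show the mean with the SD (n = 2, 2 and 3). Zc3hav1 and Rnf213 are below Tet2-WT in all 4 Tet2-KO and Tet2-Mut libraries, while Irf1 is highest in Tet2-KO and lowest in Tet2-Mut.

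Upstream of these genes, 27 of 34 listed ligand, receptor, kinase, adaptor and regulator symbols had a row. The interferon genes on the list, Ifna2, Ifna4, Ifnb1 and Ifng, had none and were not analysed here. In Tet2-KO against Tet2-WT, Tyk2 and Socs3 were called lower, where 2.91% of all genes were.

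Tyk2, a receptor-bound JAK kinase, had a log2 fold change of -0.54 (adjusted p = 0.0342) and Socs3, an inhibitor of JAK signalling, of -0.49 (adjusted p = 0.0101) in Tet2-KO against Tet2-WT. Socs3 was also lower in Tet2-KO than in Tet2-Mut (-0.32, adjusted p = 0.0468). In Tet2-Mut against Tet2-WT limma called 0 of the 27 (7 with an unadjusted p under 0.05, edgeR 0, DESeq2 1 higher). Over all genes 3.43% were called there, and 3.55% were called lower in Tet2-KO against Tet2-Mut. The Tet2-KO calls of Tyk2 and Socs3 against Tet2-WT were lost without any 1 Tet2-WT library or without Tet2-KO replicate 1, and that of Socs3 against Tet2-Mut without these or Tet2-Mut replicate 2, with edgeR and with upper quartile scaling.

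Of 59 further interferon-stimulated symbols, 41 had a row. In Tet2-KO against Tet2-Mut, 5 were higher and 1 lower (all genes: 2.64% and 3.55%), with a median log2 fold change of 0.55. The higher ones were the immunity-related GTPase Irgm2 (1.64), the antibody receptor Trim21 (0.93), Parp12 (0.67), the immunoproteasome subunit Psmb8 (2.65) and the proteasome activator Psme2 (0.65). The lower one was Lgals9, a galectin (-1.20). Psmb8 had normalized counts of 192 and 155 in Tet2-KO, 45.3 and 15.4 in Tet2-Mut, and 78.2, 69.7 and 37.8 in Tet2-WT, again with Tet2-KO highest and no overlap with the other groups. Of these 6, Psme2 alone was called in each of the 7 fits that leave out 1 library. The list had 2 to 17 calls over those fits, with the lowest count without Tet2-WT replicate 2 or Tet2-KO replicate 1, 3 without Tet2-KO replicate 2 and the highest count without Tet2-Mut replicate 1.

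In Tet2-Mut against Tet2-WT, 33 of the 41 had a negative log2 fold change (median -0.52). Of these, 3 passed as lower (all genes: 1.98%): Irgm2 (-1.40), Parp12 (-1.13) and the helicase Znfx1 (-0.43). In Tet2-KO against Tet2-WT the median was 0.03. There 0 were called higher (edgeR 1, DESeq2 3, and 12 of the 41 with an unadjusted p under 0.05 in either direction, beside 4019 of all 17338 genes). Ifi30, Lgals9 and Phf11d were lower (-0.73, -1.34 and -0.86). Over all genes 5.91% were called there, 2.91% as lower, and all 3 calls of the 41 were lower. Whether 3 of 41 differs from that share was not tested. These 3 calls were lost without any 1 Tet2-WT library or without Tet2-KO replicate 1. The calls of Tet2-Mut came to 0 without Tet2-WT replicate 1 or 2 (13 and 16 with an unadjusted p under 0.05), 1 without Tet2-WT replicate 3 or Tet2-Mut replicate 2, and 18 without Tet2-Mut replicate 1.

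Fibroblast markers, which the feeder cells express, moved along with the GTPases in Tet2-KO. Of 28 such markers 25 had a row, and none of these was at 0 in any library. Lum, Dcn and Fap had no row. Over all genes, 3% were called higher and 2.91% lower in Tet2-KO against Tet2-WT. These shares were 2.64% and 3.55% in Tet2-KO against Tet2-Mut, and 1.44% and 1.98% in Tet2-Mut against Tet2-WT. In Tet2-KO against Tet2-WT 8 were higher, among them Col1a1, Col1a2, Tagln and Lox, and 0 lower (18 with an unadjusted p under 0.05, edgeR 10 higher and 0 lower, DESeq2 13 and 0), with a median log2 fold change of 1.12. Leaving out 1 library gave 1, 2 and 0 calls without Tet2-WT replicates 1, 2 and 3 (at least 15 with an unadjusted p under 0.05 each), 1 without Tet2-KO replicate 1, and 14 and 13 without Tet2-Mut replicates 1 and 2. In Tet2-KO against Tet2-Mut 4 were higher (median 0.59; 2 without any 1 Tet2-WT library or without Tet2-KO replicate 1, and 9 without Tet2-Mut replicate 1), and in Tet2-Mut against Tet2-WT limma called 0 (6 with an unadjusted p under 0.05, edgeR 0, DESeq2 2 higher; median 0.42).

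The summed normalized counts of these markers were 85396 and 69525 in Tet2-KO, 67098 and 52981 in Tet2-Mut, and 62762, 60080 and 57925 in Tet2-WT. Most of each sum was Fn1, which was called in no comparison. Its normalized counts were 57216 and 49846 in Tet2-KO, 52509 and 38669 in Tet2-Mut, and 48307, 46050 and 43824 in Tet2-WT. The sums therefore mainly follow that gene. By the median log2 difference of each library from the Tet2-WT mean, the 25 markers stood at 1.33 and 0.80 in the Tet2-KO clones and at 0.63 and 0.21 in the Tet2-Mut clones. The 6 GTPases stood at 1.39 and 1.05 in the Tet2-KO clones and at -0.46 and -2.28 in the Tet2-Mut clones. In Tet2-KO and in Tet2-Mut, replicate 1 had the higher median of both lists, with only 2 clones in each group. Among the GTPases, Igtp went the other way in Tet2-KO, with normalized counts of 118 and 158 in replicates 1 and 2. In both Tet2-Mut clones the marker median was above and the GTPase median below the Tet2-WT mean. The part of feeder cells in the GTPase values was not tested. Of 9 immune cell markers 5 had a row, without a common direction. Cd68, a macrophage marker, was the one called by limma, lower against Tet2-WT in Tet2-KO (-0.86) and Tet2-Mut (-0.89). With edgeR the call in Tet2-Mut was lost. Not called were Csf1r (0.59 in Tet2-KO and 0.27 in Tet2-Mut), Adgre1 (0.26 and 0.76), Lyz2 (-0.01 and 0.08) and Cd3e (-0.51 and 0.26). In such bulk RNA, fewer cells of a type and less RNA per cell cannot be told apart.

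**Figure D4:**
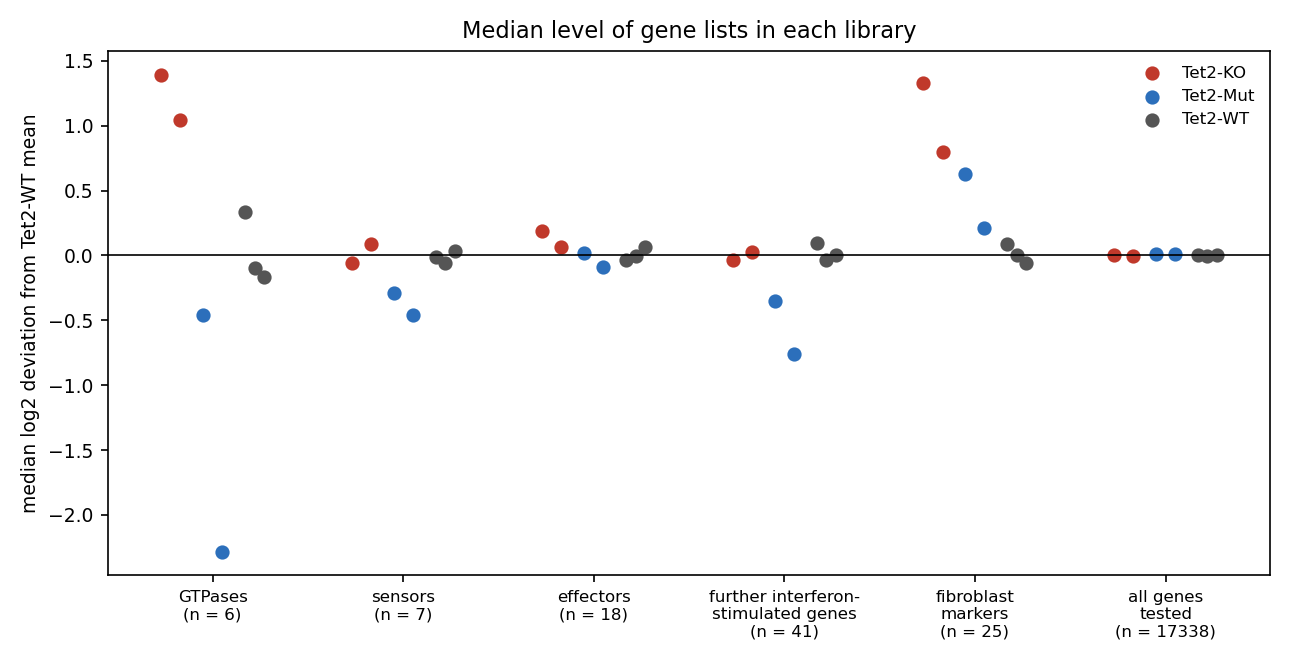
Median log2 difference from the Tet2-WT mean (y axis) in each library for the GTPases (6 genes), sensors (7), effectors (18), further interferon-stimulated genes (41), fibroblast markers (25) and all genes tested (17338). In Tet2-KO the GTPases and the fibroblast markers both lie above 0, and in Tet2-Mut the GTPases lie below 0 and the fibroblast markers above it.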

How the data were processed

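RNA-seq of 7 mouse ESC libraries was used. The authors deposited normalized counts, gene counts divided by a size factor per library (a linear signal), for 17342 genes. The submitters' processing notes name Trim Galore 0.6.5, DESeq2, featureCounts, STAR 2.7.3a and the mm10 build. No source used here gives the annotation or the strand setting. Each library's values were multiples of 1 step, within 0.01 reads (100% of values), so whole reads were recovered by division. Between 72.1% and 75.2% of values from 1 to 20 reads were even, so mates of a pair may be counted separately. No gene had fewer than 71 reads in all, so low genes had been removed before deposit.

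The test was limma (version 3.58.1, under R 4.3.3) on log2 of the normalized count plus 1. It covered the 17338 genes that reached 10 in 2 or more libraries. All 3 groups were fitted in 1 model, with a trended prior (residual degrees of freedom 4, prior 5.03) and Benjamini-Hochberg adjustment over all genes at 0.05. Fold changes on this scale understate the change of low genes. The Tet2-WT cultures varied less than the clones, so the spread shared by all groups can be too small for the clones. Alternatives were pseudocounts of 0.5 and 10, no filter or a mean of at least 50, upper quartile scaling, only the compared groups, a replicate block, no trend, edgeR 4.0.16 and DESeq2 1.42.0 on the recovered reads, and each library left out. The scripts were tested on simulated data. The floor of 3 reads covers counting error only.

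The members and lists were chosen with earlier results of these data known. The result for 1 gene of the upstream list is not reported here. Full values were given by rule for members past the test in at least 1 comparison and for the 2 members of highest mean in each role; the values of Gbp7, Igtp, Oas1a, Ifih1, Isg15, Irf9, Ifitm2 and Psmb8, and the genes named by overlap or range, were chosen after they were seen. Positions and promoters came from RefSeq (GRCm38.p6); all 34 members had a position and 31 a promoter window.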

Additional observations from a re-analysis of the deposited data

How the results depend on the processing

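Signs were checked for the 34 members, Tet2 and the genes called on the upstream, further interferon-stimulated and fibroblast lists. Among these, no log2 fold change that passed the test changed sign under any alternative run. Other pseudocounts, filters, upper quartile scaling and edgeR left the counts of calls over all genes and over the 34 members within 1.5 times. Upper quartile scaling and edgeR each gave 0 upstream calls in Tet2-KO against Tet2-Mut in place of 1 (6 and 7 with an unadjusted p under 0.05, DESeq2 2), and the call of the effector Ifitm1 was lost under both and with a mean of at least 50 as the filter. For Tet2-KO against Tet2-WT, with 1025 genes and 3 members called, fitting only the 2 groups gave 2153 and 11, no trend 19 and 0 (9 members with an unadjusted p under 0.05), DESeq2 1971 and 8, and the replicate block 15 and 1. For Tet2-Mut against Tet2-WT, with 594 and 6, only the 2 groups gave 901 genes and 7 members, no trend 0 and 0 (3018 and 14 with an unadjusted p under 0.05), DESeq2 1551 and 11, and the replicate block 7 and 0 (15 members with an unadjusted p under 0.05). For Tet2-KO against Tet2-Mut, with 1074 and 10, only the 2 groups gave 0 and 0 (2351 and 14 with an unadjusted p under 0.05), no trend 10 and 0 (15 members), DESeq2 1815 and 12, and the replicate block 467 and 3. The cause was not tested. Leaving out 1 library gave 85 to 2158 genes and 0 to 11 members in Tet2-KO against Tet2-WT, 6 to 2198 and 1 to 16 in Tet2-Mut against Tet2-WT, and 530 to 2679 and 4 to 14 in Tet2-KO against Tet2-Mut.

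By library, the members called in Tet2-KO against Tet2-WT numbered 1, 0 and 0 without Tet2-WT replicates 1, 2 and 3, 11 without either Tet2-Mut clone, and 0 and 6 without the first and second Tet2-KO clone. In Tet2-Mut against Tet2-WT they were 1 without each Tet2-WT replicate, and 16 and 1 without Tet2-Mut replicates 1 and 2. In Tet2-KO against Tet2-Mut they were 5, 4 and 5 without Tet2-WT replicates 1, 2 and 3, 6 without Tet2-Mut replicate 2 and 4 without either Tet2-KO clone. A library left alone in its group was assumed to vary like the other groups.

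Deviations of same-numbered libraries from their group means correlated at -0.17 and 0.03 for Tet2-KO and Tet2-WT (13523 genes). They correlated at 0.21 and -0.07 for Tet2-Mut and Tet2-WT, and at -0.18 for both numbers of Tet2-KO and Tet2-Mut. The clones of a group deviate from their mean by equal and opposite amounts, so that last value is the same for both numbers by construction. With so few libraries and mixed signs, these correlations cannot decide whether the numbers pair the samples. With the pairing of Tet2-KO and Tet2-Mut crossed, chosen after seeing the data, 500 genes and 6 members were called.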
